A study of Mus musculus with 98 samples.

Results

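Primary hippocampal neurons of CD1 mouse embryos were compared on day 21 and day 9 of culture, to describe how gene expression changed over 12 days in the control condition of the study. The comparison used 6 of the 98 libraries of the series, 3 per day, chosen by their labels alone: the cultures that received the vector virus and PBS. Per the labels, every culture in the comparison had received the PhP.eB vector on day 5 for 48 hours and PBS from day 7, in neurobasal medium with B27. The control arm therefore carries a viral vector on both days, and no culture without virus entered the comparison. The vector is the study's control for a virus that carries Acss2 (upACSS2), which encodes the acetyl-CoA synthetase that uses acetate, and PBS is the control for tau material named hAD-tau. The labels do not say whether the replicates of a day were separate cultures, so p-values measure only the spread between these libraries. They also give no plating or sequencing batch, so the day and such a batch cannot be told apart.

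Embryonic hippocampal neurons are plated while still extending axons and dendrites, and over the following weeks they form synapses and switch subunits of receptors, channels and cytoskeletal proteins. Growth proteins such as doublecortin and stathmins mark the early state, while mature subunits such as the GluN2A subunit of the NMDA receptor mark the later one. Glial precursors carried over at plating can divide and differentiate beside the neurons: astrocytes supply cholesterol and clear glutamate, and oligodendrocyte precursors mature into cells that make myelin proteins. In RNA from a whole culture, fewer cells of a type and less RNA per cell cannot be told apart.

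Libraries held 17155116 to 33960722 counts, and Acss2 was 41.7 to 51.6 CPM (counts scaled to a common library size, with the trimmed mean of M values) on day 9 and 44.7 to 57.3 CPM on day 21. The day 21 libraries were far more variable, with a biological coefficient of variation of 0.247 against 0.0424 on day 9, and a larger SD on day 21 for 86.2% of genes, so each day was given its own spread in the test. Replicate 3 of day 21 stood apart on the second principal component, and replicate 2 of day 21 had 11% of its counts on the ribosomal RNA gene Rn45s, against 0.272% to 0.887% in the other 5 libraries. Of 14336 genes tested with edgeR, 3318 were higher on day 21 and 2713 were lower at an adjusted p under 0.05, which is 23.1% and 18.9% of all genes tested, or 42.1% in both directions, with a median log2 fold change of 0.04. Beyond 2-fold, 768 genes were higher and 366 lower, or 5.36% and 2.55%. These shares are the background for each list of genes that follows. Without replicate 2 of day 21 the lower genes numbered 1643, and 228 beyond 2-fold. The balance of directions depended on the scaling. Higher genes made up 55% of the calls here and 70.2% with library totals alone (median log2 fold change 0.20). The share was 92.7% when the libraries were scaled to 14 pan-neuronal genes, an alternative added after the data were seen (median 0.64). In the main fit 8 of these 14 genes fell and 3 rose (median -0.61). Some also belong to lists given below, such as Tubb3 and Mapt, which fell, and Eno2, which rose. That scaling is therefore not independent of those lists.

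The broadest fall among neuronal genes was in those of the growing, immature neuron. Of 30 such genes, 26 fell, 2 rose and 2 did not pass the test, with a median log2 fold change of -1.54, and 17 fell beyond 2-fold. After scaling to the pan-neuronal genes, 22 still fell and the median was -0.94. Doublecortin (Dcx), a microtubule protein of migrating and newly born neurons, measured 802, 786 and 828 CPM in the day 9 libraries and 74.7, 132 and 98.6 CPM on day 21. The day 21 values all lay far under the day 9 values, with an edgeR log2 fold change of -2.98 (SE 0.21) at an adjusted p of 2.24e-06. Dpysl5, a collapsin response mediator protein of growth cones, went from 1407, 1482 and 1460 CPM to 133, 109 and 168 CPM (log2 fold change -3.40 ± 0.21, the value after ± being the SE here and for later fold changes). Its relatives Dpysl3 and Crmp1 fell by 3.14 and 2.69 on the log2 scale. Gap43, a growth cone membrane protein, was 1403, 1519 and 1357 CPM on day 9 and 305, 231 and 205 CPM on day 21. Both groups of values were well separated, and the same holds for Stmn1, a stathmin that destabilises microtubules, at 174 to 194 CPM on day 9 and 24.6 to 32.9 CPM on day 21. Among the members that rose, Nhlh1, a transcription factor of newly born neurons, went from 0.307 to 0.553 CPM up to 1.74 to 3.31 CPM. Nhlh1 lay near the floor on day 9. It passed the filter on low counts only with the help of day 21 libraries, so a rise was favoured in advance. Sox4 rose by 0.66, a call lost without replicate 2 of day 21 (adjusted p 0.0517, edgeR). Draxin and Fez1 did not pass the test.

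**Figure D1:**
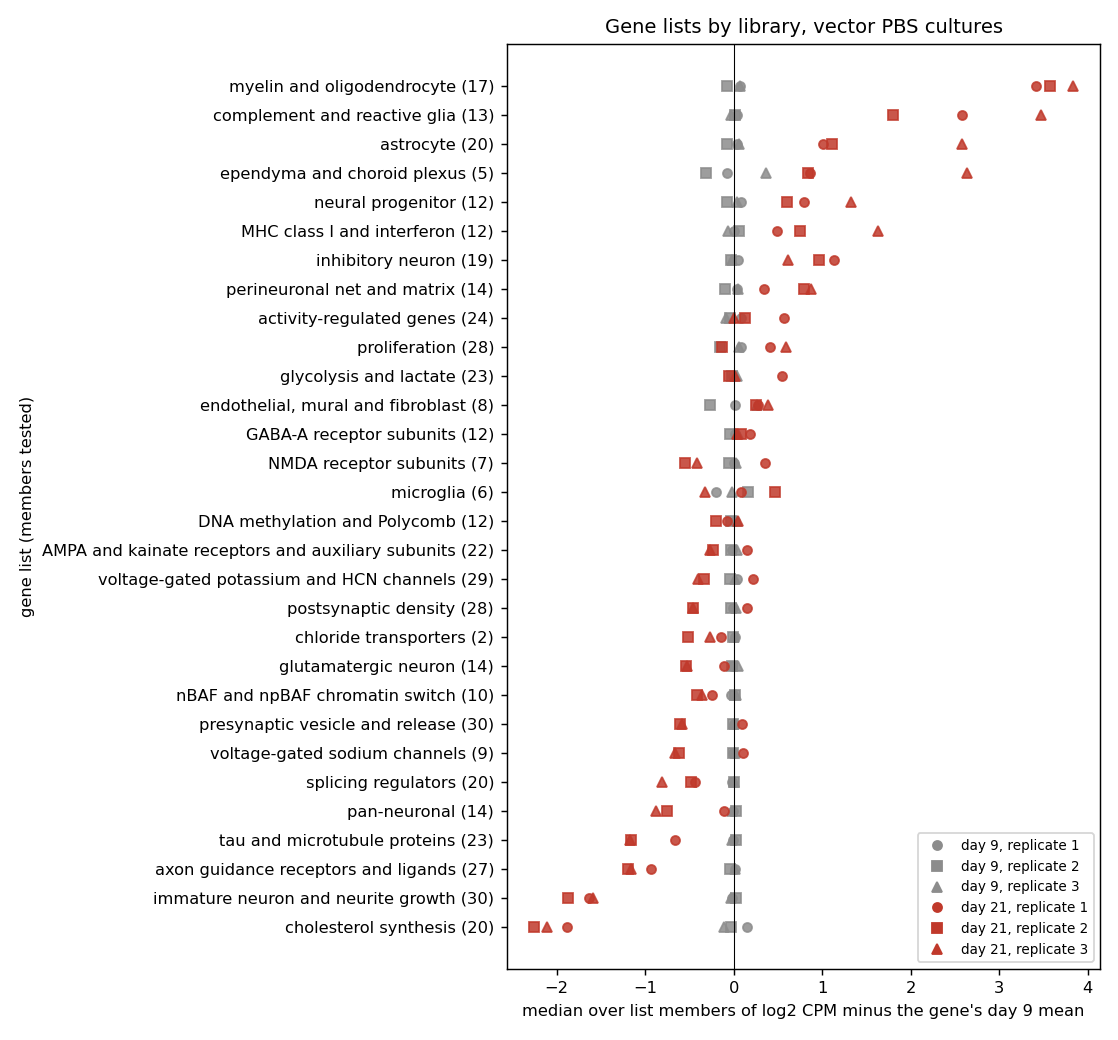
Each row is a gene list with its number of tested members; the x axis gives, per library, the median over members of log2 CPM minus the gene's day 9 mean. Grey symbols are the day 9 libraries and red symbols the day 21 libraries; the growth and cholesterol lists lie left of 0 in all 3 day 21 libraries and the astrocyte, myelin and complement lists lie to the right, with replicate 3 farthest out for the astrocyte list at 2.58.

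Axon guidance genes fell with the growth genes. Of 27 ligands and receptors, 18 fell, 1 rose and 8 did not pass, with a median of -1.12. The semaphorin receptor Nrp2 had 676 to 738 CPM on day 9 and 96.5 to 135 CPM on day 21 (log2 fold change -2.68 ± 0.20), and its partner Nrp1 fell by 2.20. Dcc, a netrin receptor, fell from 150 to 165 CPM down to 45.3 to 60.5 CPM. Robo1, a receptor for Slit proteins, and its ligand Slit2 fell by 1.46 and 1.57, while Robo2 did not pass the test at -0.29 ± 0.25. Netrin 1 (Ntn1) was the member that rose, from 7.23 to 8.30 CPM up to 10.5 to 14.2 CPM.

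Of 23 microtubule genes 18 were lower, 1 was higher and 4 did not pass (median -0.87). Tubb3, Tuba1a, Tubb2b, Stmn1 and Stmn2 also belong to the growth list, and 13 of the 18 genes that do not were lower. Tau itself, the microtubule protein from Mapt, measured 2458, 2590 and 2488 CPM on day 9 and 470, 400.5 and 407 CPM on day 21. All day 21 values lay far under the day 9 values, with an edgeR log2 fold change of -2.56 (SE 0.20) at an adjusted p of 3.58e-06. Map1b, a microtubule protein of growing axons, fell by 2.04 and Map2, the dendritic one, by 1.11. The beta-tubulin Tubb3 went from 1482 to 1586 CPM down to 283 to 375.5 CPM. In contrast to Tuba1a, the main alpha-tubulin of growing neurons, which fell by 1.32, Tuba4a rose from 150.0 to 158 CPM up to 224 to 403 CPM. Tubb4a, Tubb4b, Cdk5 and Map7d2 did not pass the test. Scaled to the pan-neuronal genes, 11 of the 23 fell and 2 rose.

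**Figure D2:**
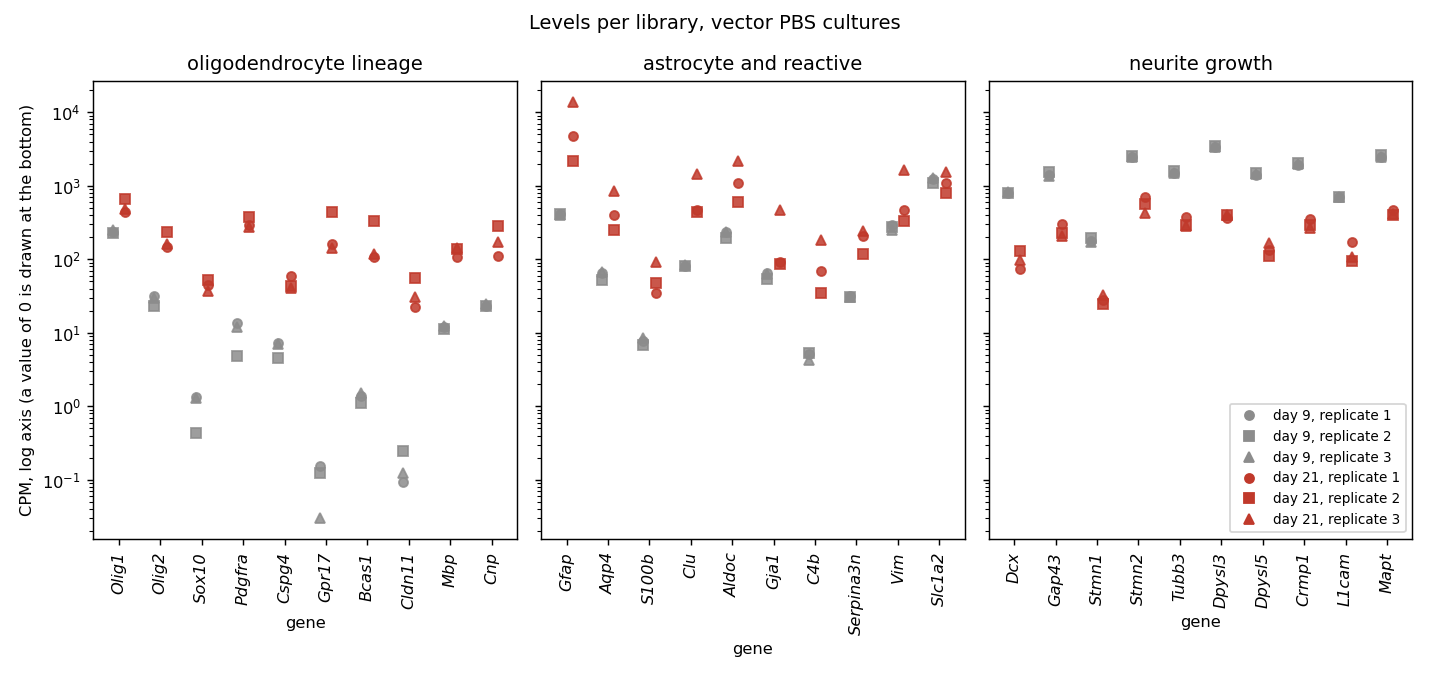
The y axis gives CPM on a log axis for 10 genes each of the oligodendrocyte lineage, of astrocytes and their reactive state, and of neurite growth; each symbol is 1 library, grey for day 9 and red for day 21, and a value of 0 is drawn at the bottom. Dcx lies between 74.7 and 132 CPM on day 21 against 786 to 828 CPM on day 9, and for Gfap the 3 red symbols spread from 2157 to 13851 CPM.

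Synaptic genes were called in both directions. Of 30 genes of the synaptic vesicle and its release, 3 rose, 12 fell and 15 did not pass, with a median of -0.34 that turned to 0.21 after scaling to the pan-neuronal genes (12 higher and 5 lower). Without replicate 1 of day 21, 1 rose and 18 fell, and without replicate 2, 2 rose and 8 fell. Replicate 1 of day 21 held higher levels of this list than replicates 2 and 3, with per-library medians of 0.09, -0.61 and -0.585 relative to day 9. Vamp1, a vesicle SNARE protein, rose from 20.4, 22.4 and 18.7 CPM to 112, 86.1 and 49.8 CPM (log2 fold change 2.00 ± 0.18), and every day 21 library lay above every day 9 library. Stx1a, a SNARE protein of the target membrane, fell from 273 to 302 CPM down to 70.3 to 112 CPM, and the synaptotagmin Syt4 fell by 1.90. Snap25 rose by 0.53 ± 0.17, a call lost without replicate 1 or replicate 2 of day 21 (adjusted p 0.222 and 0.0615, edgeR). Synaptophysin (Syp), at 1208 to 1229 CPM on day 9 and 892 to 1573 CPM on day 21, had overlapping groups.

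In the postsynaptic density, 4 of 28 genes rose, 8 fell and 16 did not pass (median -0.19, or 0.36 when scaled to the pan-neuronal genes). Without replicate 2 of day 21, 2 rose and 4 fell, and without replicate 1, 2 rose and 12 fell. Camk2n1, an inhibitor of the kinase CaMKII, rose from 79.6, 88.6 and 88.9 CPM to 269, 193 and 191 CPM. The scaffold Shank1 fell from 277 to 288 CPM down to 93.0 to 167 CPM, whereas Dlg4, which encodes PSD-95, had a log2 fold change of -0.36 ± 0.18 and did not pass the test. The kinase gene Camk2a stood at 957 to 1082 CPM on day 9 and at 1847, 1093 and 883 CPM on day 21, so that replicate 1 of day 21 stood far above the day 9 range and replicate 3 under it.

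Receptor subunits of 1 family were called in both directions. Among 7 NMDA receptor subunits, 1 rose and 3 fell, against 4 higher and 1 lower with the pan-neuronal scaling. Grin2b, the GluN2B subunit of immature synapses, fell from 637, 613 and 651 CPM to 295, 246 and 173 CPM, while Grin2a, the later GluN2A subunit, measured 116 to 132 CPM on day 9 and 93.4 to 174 CPM on day 21 and did not pass the test (log2 fold change 0.04 ± 0.19). Grin3a rose from 26.5 to 32.6 CPM up to 50.1 to 67.6 CPM. For the GABA-A receptor, 2 of 12 subunits rose and 4 fell, against 6 higher and 1 lower with that scaling. The alpha subunit Gabra2, abundant in early development, fell from 728, 724 and 722 CPM to 328, 236 and 240 CPM (log2 fold change -1.43 ± 0.17), and the 2 days did not overlap. Of 22 AMPA and kainate receptor genes and auxiliary subunits, 6 rose and 5 fell, shares near the 23.1% and 18.9% of all genes tested. Without replicate 1, 2 or 3 of day 21 the risers numbered 3, 2 and 4, and those that fell 7, 3 and 3. The median of -0.11 changed sign with library totals (0.05) and with the pan-neuronal scaling (0.46, with 11 higher and 1 lower). Cacng3, an auxiliary AMPA receptor subunit, rose by 1.59 ± 0.16, and the main AMPA subunits Gria1 and Gria2 did not pass the test.

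Of 9 sodium channel genes 3 rose and 2 fell: the mature Scn1a rose from 28.3 to 36.7 CPM up to 61.7 to 101 CPM, the auxiliary subunit Scn2b rose by 1.21, and Scn3a and Scn3b, which prevail in the embryo, fell by 0.71 and 1.14. Without replicate 1 of day 21, 2 of the 9 rose and 4 fell. Among 29 potassium and HCN channel genes 7 rose and 5 fell, which is close to the shares over all genes tested. Without replicate 1 of day 21, 1 of the 29 rose and 9 fell. Kcnc2, a fast potassium channel of interneurons, rose from 29.4 to 32.7 CPM up to 66.3 to 84.8 CPM, and the pacemaker channel Hcn4 fell from 39.8 to 44.5 CPM down to 4.08 to 8.68 CPM. The medians of the sodium and potassium lists, -0.36 and -0.16, became 0.17 and 0.38 when scaled to the pan-neuronal genes. Slc12a5, the chloride exporter KCC2 of mature neurons, fell by 0.56 ± 0.19, a call lost without replicate 2 or 3 of day 21 (adjusted p 0.265 and 0.12, edgeR) and without replicate 1 or 3 of day 9 (0.0511 and 0.0566).

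Ratios of 2 genes within a library do not depend on the scaling, and 24 pairs of an earlier and a later form were compared in this way. Counts are not per transcript length, so the change of a ratio is read here and not its height. In 14 pairs the later gene gained in all 3 day 21 libraries without overlap, in 4 the earlier gene gained, and 6 overlapped. Among single genes, 30.3% of all tested lay higher on day 21 without overlap and 29.1% lower. With 3 libraries against 3 the exact permutation test cannot go below a two-sided p of 0.1, which is what every pair without overlap gave (adjusted p 0.133 over the 24 pairs). The log2 ratio of Grin2a to Grin2b was -2.33, -2.40 and -2.30 on day 9 and -0.76, -1.05 and -0.89 on day 21. Hapln4 over Hapln1, link proteins of the extracellular matrix, moved from -4.99 ± 0.51 to -1.34 ± 1.20 (SD, n = 3 each). The vesicular glutamate transporter Slc17a7 gained over Slc17a6, from 4.11 ± 0.27 to 6.96 ± 1.09, where Slc17a6 fell by 2.41 and Slc17a7 itself did not pass the test. Scn1a gained over Scn3a by 1.98, Vamp1 over Vamp2 by 2.29 and Tuba4a over Tuba1a by 2.16.

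**Figure D3:**
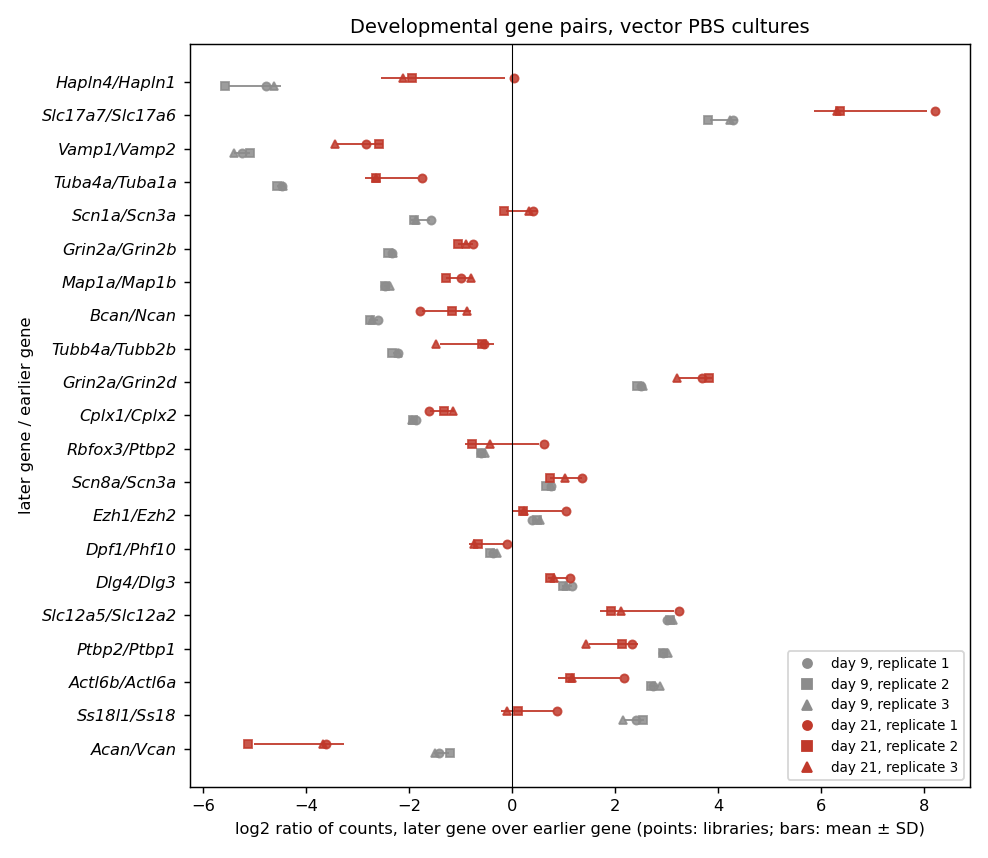
Log2 ratio of the counts of the later gene to those of the earlier gene, for 21 of the 24 pairs; grey symbols are the 3 day 9 libraries, red symbols the 3 day 21 libraries, and bars the mean ± SD. Pairs at the top shifted toward the later gene, as Hapln4/Hapln1 from -4.99 to -1.34, and the lowest row, Acan/Vcan, shifted the other way from -1.37 to -4.13.

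In 4 pairs the ratio moved toward the earlier gene. Actl6b, the neuronal subunit of the BAF chromatin remodelling complex, lost against the progenitor subunit Actl6a (2.77 ± 0.09 to 1.49 ± 0.60), and Ss18l1 lost against Ss18 (2.37 ± 0.20 to 0.30 ± 0.51). The neuronal splicing repressor Ptbp2 lost against Ptbp1, which neurons silence (2.97 ± 0.06 to 1.97 ± 0.47). Acan, the aggrecan core protein of perineuronal nets, lost against Vcan, as Acan fell from 13.6 to 15.1 CPM down to 3.004 to 5.304 CPM and Vcan rose by 1.03. Markers of astrocytes and oligodendrocyte precursors rose in the same libraries, with summed levels given further on, and their part in these ratios was not tested. The pairs that overlapped were Slc12a5/Slc12a2, Scn8a/Scn3a, Dlg4/Dlg3, Dpf1/Phf10, Ezh1/Ezh2 and Rbfox3/Ptbp2.

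All 20 genes of cholesterol synthesis and uptake were lower on day 21, with a median log2 fold change of -2.06 and a range of -3.26 to -1.06, and 16 of them fell beyond 2-fold. The 20 stayed lower with each of the 6 libraries left out, and 18 of the 20 fell after scaling to the pan-neuronal genes (median -1.47). The list runs from early enzymes of the pathway to its last reductions. Hmgcs1, which makes HMG-CoA, was 3874, 3795 and 3612 CPM on day 9 and 745, 558 and 648 CPM on day 21 (log2 fold change -2.53 ± 0.22 with edgeR, adjusted p 8.12e-06). The 2 days were separated by a wide gap. Mvd, which forms isopentenyl pyrophosphate, had the largest log2 fold change of the list, from 277, 254 and 209 CPM to 30.6, 23.1 and 23.4 CPM (-3.26 ± 0.40). Downstream, Fdps, Sqle and Lss fell by 2.78, 2.37 and 1.91, and the late enzyme Dhcr7 by 1.79. Insig1, which holds the sterol-sensing complex in the endoplasmic reticulum, fell by 1.58.

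**Figure D4:**
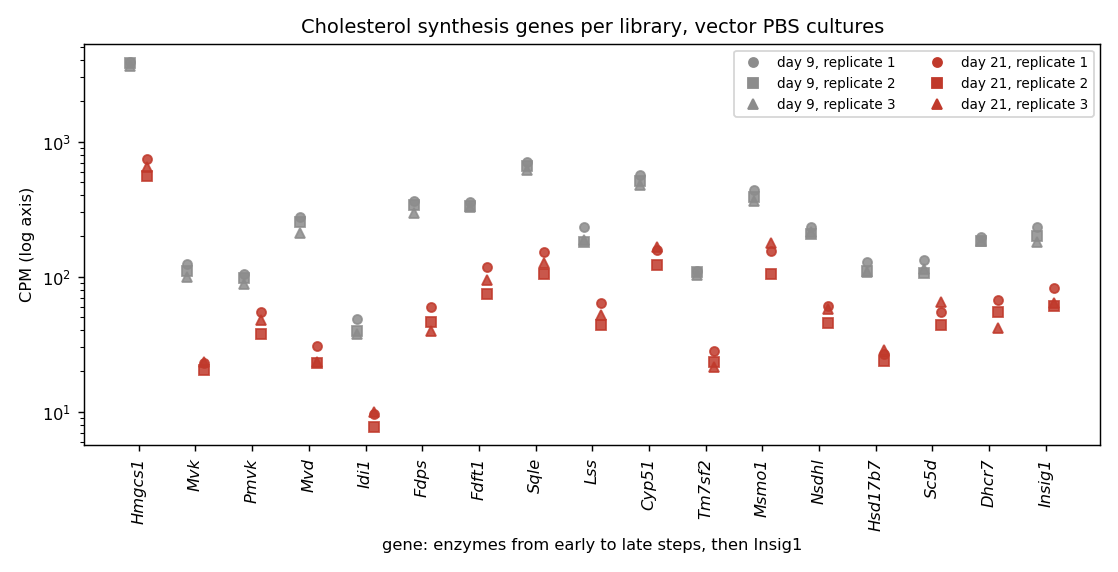
CPM on a log axis for 17 of the 20 genes of cholesterol synthesis and uptake, enzymes from early to late steps followed by Insig1; each symbol is 1 library. For every gene drawn all 3 day 21 libraries (red) lie under all 3 day 9 libraries (grey), as for Hmgcs1 at 558 to 745 against 3612 to 3874 CPM.

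These genes are known as targets of the sterol regulatory element binding protein SREBP, which works beside the factor NF-Y, so their promoters were searched for 2 short motifs. The 250 bases before each transcription start came from the RefSeq promoter table of build GRCm38.p6, which held 14 of the 20 genes. The box bound by NF-Y, ATTGG on either strand, was present in 14 of 14, against 40.3% of the 11357 tested genes with a promoter in the table. The sterol element TCACNCCAC on either strand was present in 1 of 14, Hmgcs1, against 1.22% of all tested genes, and in 3 of 16 astrocyte genes. A gene was counted when any of its starts had a match, the 2 motifs did not overlap in the sequences searched, and the motifs were chosen after the expression values were seen. Windows of 3 genes that overlap no annotated exon are shown 5′ to 3′ on the strand of the gene, with Hmgcs1 (chr13:119690101-119690350, plus strand), Mvd (chr8:122443423-122443672, minus strand) and Sc5d (chr9:42264301-42264550, minus strand), because they show the spacing of these letters before the start. Capitals mark ATTGG or its reverse complement CCAAT, and in Hmgcs1 also the longer element TCACCCCAC, which begins 137 bases before the start.
Hmgcs1: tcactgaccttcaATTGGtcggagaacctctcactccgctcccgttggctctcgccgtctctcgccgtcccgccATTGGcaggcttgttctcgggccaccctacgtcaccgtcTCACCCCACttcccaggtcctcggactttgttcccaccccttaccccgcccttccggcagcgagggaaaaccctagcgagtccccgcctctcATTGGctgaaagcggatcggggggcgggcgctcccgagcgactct
Mvd: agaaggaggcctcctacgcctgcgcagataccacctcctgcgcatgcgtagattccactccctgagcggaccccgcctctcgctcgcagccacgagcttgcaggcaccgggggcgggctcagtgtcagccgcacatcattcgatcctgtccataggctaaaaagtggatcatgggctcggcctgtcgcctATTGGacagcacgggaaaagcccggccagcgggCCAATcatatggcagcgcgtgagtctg
Sc5d: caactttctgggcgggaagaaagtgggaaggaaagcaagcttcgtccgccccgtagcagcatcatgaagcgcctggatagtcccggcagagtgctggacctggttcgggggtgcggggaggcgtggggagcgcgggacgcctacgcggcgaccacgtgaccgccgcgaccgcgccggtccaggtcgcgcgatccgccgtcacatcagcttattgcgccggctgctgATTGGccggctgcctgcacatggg
Hmgcs1 holds 3 NF-Y boxes, Mvd holds 2 and Sc5d holds 1. A match in letters is a description of these windows and does not show that a factor bound there.

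The largest rises in the cultures were in genes of the oligodendrocyte lineage. Of 18 listed genes 17 passed the filter on low counts, and of these 15 rose, 1 fell and 1 did not pass the test, with a median of 3.72. The filter asks for counts in at least 3 libraries, so a member almost absent on day 9 could pass only through day 21. Gpr17, Cldn11, Mag and Mobp, given further on, passed in this way. Their direction was fixed in advance, which limits the count and the median. The summed level of the 18 genes went from 314 to 362 CPM on day 9 to 1679, 3105 and 1944 CPM on day 21. Pdgfra, the growth factor receptor of oligodendrocyte precursors, was 13.6, 4.79 and 12.1 CPM on day 9 and 291, 376 and 273 CPM on day 21 (log2 fold change 4.87 ± 0.33 with edgeR, adjusted p 1.62e-06). Mbp, myelin basic protein, went from 11.8, 11.1 and 12.4 CPM to 108, 138 and 141 CPM (3.45 ± 0.11). All day 21 values of both genes lay above all day 9 values. The lineage factor Olig1 was present from day 9, at 225 to 252 CPM, and rose by 1.15, while Sox10, which drives differentiation, rose from 0.430 to 1.33 CPM up to 37.0 to 51.8 CPM.

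Genes of the committed, premyelinating stage were almost absent on day 9. The genes of this paragraph were picked out after their values were seen. Gpr17, a receptor of that stage, had 5, 2 and 0 counts on day 9, or 0.155, 0.123 and 0 CPM, and 163, 440 and 142 CPM on day 21. Bcas1 was 1.40, 1.11 and 1.54 CPM on day 9 and 108, 334 and 118 CPM on day 21, with the highest value in replicate 2 for both genes. Cldn11, a tight junction protein of myelin, went from 0.0931 to 0.246 CPM up to 22.5 to 55.1 CPM. Mag, a myelin glycoprotein, had 1 count in all 3 day 9 libraries together and 11.3, 13.8 and 25.1 CPM on day 21. The late myelin protein Mog did not follow and fell from 3.07 to 4.86 CPM down to 0.770 to 1.94 CPM. Mobp was 0.0615 to 0.124 CPM on day 9 and 2.02, 0.501 and 17.1 CPM on day 21, mostly in replicate 3, and Ermn did not pass the test.

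Astrocyte genes rose together, unevenly between libraries. Of 20 genes 17 rose and 3 did not pass, with a median of 1.83, and 13 rose without replicate 3 of day 21 (median 1.07). Gfap, the intermediate filament of astrocytes, was 414, 411 and 400.3 CPM on day 9 and 4774, 2157 and 13851 CPM on day 21, a log2 fold change of 4.08 ± 0.21 (adjusted p 3.46e-07, edgeR). Replicate 3 of day 21 was the highest library for Gfap, and also for the water channel Aqp4, at 395, 248.5 and 846 CPM after 53.1 to 67.5 CPM on day 9. The summed astrocyte list gave 4153 to 4492 CPM on day 9 and 13090, 9274 and 32680 CPM on day 21. The secreted chaperone clusterin (Clu) rose by 3.26 ± 0.19, the calcium-binding S100b by 2.92 and the glutamine synthetase gene Glul by 1.93. The glutamate transporter Slc1a2 measured 1101 to 1259 CPM on day 9 and 1075, 788 and 1536 CPM on day 21 and did not pass the test. Calls of Aldh1l1, Slc1a3 and Gja1 were lost without replicate 3 (adjusted p 0.117, 0.0835 and 0.0518, edgeR), where their log2 fold changes were 0.38, 0.45 and 0.53.

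Complement and reactive glia genes rose in all 13 members that passed the filter, with a median of 2.60. The other 5 of the 18 stayed under the filter, so 13 is not the whole list, and 12 rose without replicate 3 of day 21. A member almost absent on day 9 could pass the filter only through day 21, so its rise was fixed in advance. The count and the median carry this limit, as do those of the antigen presentation genes below. C4b, a complement component, went from 5.12, 5.35 and 4.30 CPM to 68.3, 34.3 and 185 CPM, Serpina3n, a protease inhibitor of reactive astrocytes, from 30.2 to 31.9 CPM up to 117 to 243 CPM, and the intermediate filament Vim from 248 to 290 CPM up to 467, 328 and 1633 CPM. Replicate 3 was highest in each. Of 18 genes of antigen presentation and the interferon response 12 passed the filter, and 7 of them rose: B2m, the light chain of class I molecules, was 15.7 to 16.4 CPM on day 9 and 34.4, 63.1 and 109 CPM on day 21, while the heavy chain genes H2-D1 and H2-K1 did not pass the test.

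Markers of microglia and of vessels were at low levels on both days. Of 16 microglial markers 6 passed the filter, and the defining Cx3cr1, P2ry12 and Tmem119 did not, with at most 0.619 CPM in any library. The summed microglial list was 24.3 to 26.6 CPM on day 9 and 28.5 to 41.9 CPM on day 21. Endothelial, mural and fibroblast markers summed to 29.4 to 35.1 CPM on day 9 and 26.8 to 44.1 CPM on day 21, with the endothelial Cldn5 at 0 in all 3 day 21 libraries and at most 0.0621 CPM on day 9. Ependymal and choroid plexus markers summed to 8.91 to 11.7 CPM on day 9 and to 12.9, 9.94 and 63.6 CPM on day 21. That rise was mostly in replicate 3: Foxj1, which directs motile cilia, was 7.45 to 8.54 CPM on day 9 and 7.20, 4.20 and 48.4 CPM on day 21, and without replicate 3 its log2 fold change turned from 1.36 to -0.45 (adjusted p 0.225, edgeR). Its call was also lost without any 1 of the day 9 libraries (adjusted p 0.0624 to 0.0776). Of the 5 tested ependymal genes 4 rose, and 2 without replicate 3. Of 13 progenitor genes 12 passed the filter, and of these 8 rose, 1 fell and 3 did not pass the test (median 1.17). Without replicate 3 of day 21, 6 rose and the median was 0.70. Among the risers was Sox2, from 44.7 to 48.7 CPM up to 111, 114 and 213 CPM.

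Neuronal identity genes did not move as 1 block. Of 14 pan-neuronal genes 3 rose and 8 fell (median -0.61), with summed levels of 11480 to 11740 CPM on day 9 and 8291, 5857 and 5488 CPM on day 21. Without replicate 2 of day 21, 5 of the 14 fell. Thy1, a surface glycoprotein of mature projection neurons, rose from 189 to 201 CPM up to 286 to 505 CPM, and Eno2, the neuronal enolase, rose by 0.77, against the falls of Tubb3, Mapt and Elavl3. The nuclear marker Rbfox3 (NeuN) did not pass the test, at 131 to 140 CPM on day 9 and 224, 101 and 110 CPM on day 21. Among 14 glutamatergic markers 2 rose and 7 fell (median -0.29, or 0.29 with the pan-neuronal scaling), with Neurod6 falling from 616 to 646 CPM down to 83.1 to 232 CPM.

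Inhibitory neuron genes, in contrast, rose in 12 of 19 with 1 lower and 6 not passing (median 0.93). Gad1, which makes GABA, was 305, 274 and 284 CPM on day 9 and 777, 638 and 571 CPM on day 21 (log2 fold change 1.20 ± 0.16 with edgeR, adjusted p 0.000125). The 2 days did not overlap, nor did they for the second synthesis enzyme Gad2, which rose by 1.05, or the somatostatin gene Sst, which went from 75.1 to 82.7 CPM up to 155 to 200.2 CPM. Npy rose from 3.32 to 5.21 CPM up to 16.98 to 35.3 CPM. Parvalbumin (Pvalb), a calcium buffer of fast-spiking cells, had 3, 0 and 1 counts on day 9 and 2.56, 3.43 and 4.51 CPM on day 21. It passed the filter on low counts only through day 21, so its direction was fixed in advance. The count and the median of this list carry that limit. Calb2 was the member that fell, by 0.94, and the lineage factors Dlx1, Dlx2 and Lhx6 did not pass the test. No test compared the inhibitory with the glutamatergic genes.

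Of 24 activity-regulated genes 8 rose and 4 fell, and 5 rose without replicate 1 of day 21 (median 0.31 with it and -0.06 without). Scaled to the pan-neuronal genes, 14 rose and 1 fell. Arc, a synaptic immediate early gene, rose from 6.15 to 9.34 CPM up to 19.6 to 42.0 CPM, Egr1 by 1.33 and Btg2 by 1.74, whereas Nr4a3 fell from 529 to 607 CPM down to 86.9 to 183 CPM and Npas4 fell by 1.12. Among 20 splicing regulators 5 rose and 11 fell, or 7 fell without replicate 2 of day 21. The pan-neuronal scaling turned that balance to 7 higher and 3 lower (median -0.60 to -0.02). Nova1 rose from 15.7 to 19.9 CPM up to 49.6 to 80.0 CPM and Mbnl2 by 0.75, while Nova2, Rbfox1 and Elavl3 fell by 1.19, 0.95 and 1.28. The DNA methyltransferase Dnmt3a fell from 354 to 374 CPM down to 161 to 200.2 CPM, 1 of 4 lower among 12 genes of DNA methylation and Polycomb. The 1 higher gene was Ezh1, a call lost without replicate 1, 2 or 3 of day 21 or replicate 1 of day 9 (adjusted p 0.145, 0.147, 0.0518 and 0.0576, edgeR). With the pan-neuronal scaling 7 of the 12 rose and 0 fell. Cell cycle genes passed the test in 6 of 28, all higher (Mcm2, Mcm5, Mcm6, Mcm7, Cdc6 and Cdt1, which license DNA replication). The number higher is close to the 23.1% over all genes tested, of which 18.9% were lower. Of the 28 genes, 1 was higher without replicate 1 of day 21, 3 without replicate 2 and 1 without replicate 3. With the pan-neuronal scaling 20 of the 28 rose. The mitotic marker Mki67 had 20.2 to 27.5 CPM on day 9 and 33.0, 18.2 and 37.4 CPM on day 21 and did not pass.

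In the perineuronal net list 7 of 14 tested genes rose and 4 fell: Hapln4, a link protein, went from 3.79, 1.84 and 3.81 CPM to 101, 36.8 and 34.7 CPM, and Tnr, tenascin-R, from 38.1 to 42.7 CPM up to 136 to 202 CPM, while Has3 and Acan fell by 1.74 and 1.73. Of 23 genes of glycolysis and lactate 5 rose and 4 fell, or 1 fell without replicate 2 of day 21. These shares are close to those over all genes tested, and they became 11 higher and 2 lower with library totals and 16 and 1 with the pan-neuronal scaling. The astrocytic aldolase Aldoc rose by 2.53 and the glucose transporter Slc2a1, of glia and endothelium, from 13.03 to 15.98 CPM up to 56.7, 31.0 and 76.0 CPM. The neuronal transporters Slc2a3 (glucose) and Slc16a7 (monocarboxylates) fell by 0.54 and 1.97. The neuronal enolase Eno2, also of this list, went the other way and rose by 0.77. Aldoa, the aldolase shared by all cells, rose by 0.85. The hexokinase Hk1 fell by 0.50, a call lost without replicate 2 or 3 of day 21 or replicate 3 of day 9 (adjusted p 0.286, 0.0917 and 0.053, edgeR). Hk2, a second hexokinase, fell by 1.39, a call lost without replicate 2 of day 21 (adjusted p 0.0764, edgeR).

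Ranked by size alone, among genes at a mean of at least 4 on the log2 CPM scale with no overlap, the 12 highest included Pdgfra, Neat1, C4b, Gsn, Gfap, Padi2, S100a16, Mbp, Rida, Plekhb1 and Cpne6. Neat1, a nuclear long noncoding RNA, went from 6.86, 5.35 and 6.27 CPM to 89.8, 15.1 and 308 CPM, a wide spread on day 21. Gsn, the actin-severing protein gelsolin, rose from 6.21 to 8.32 CPM up to 117, 80.2 and 218 CPM. Cpne6, a neuronal calcium-dependent membrane-binding protein, had its highest day 21 value in replicate 1, at 204, 102 and 85.9 CPM after 11.9 to 12.8 CPM on day 9. The 12 lowest were Lypd6, Cntn2, Cxadr, Dpysl5, Mvd, Trim67, Dpysl3, Dcx, Shtn1, Rac3, Fdps and Crmp1. Cntn2, an adhesion molecule of growing axons (chromosome 1, 132509427 to 132543256, minus strand, GRCm38), fell from 321, 377 and 346 CPM to 35.1, 30.9 and 30.4 CPM. Cxadr, a cell adhesion protein, fell from 957 to 1025 CPM down to 81.7 to 105 CPM, and Shtn1, shootin of the axonal growth cone, by 2.98.

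The same change over 12 days was measured in 2 further sets of 6 libraries that share none with these: vector cultures with hAD-tau, and upACSS2 cultures with PBS. Of the genes called here and tested there, 5824 of 5884 changed in the same direction with hAD-tau (99%) and 5823 of 5907 with upACSS2 (98.6%). In those sets 47.4% and 54.4% of all genes tested were called. Across genes, which are not independent replicates, the log2 fold changes correlated with Pearson's r of 0.912 over 13943 genes and 0.894 over 14038 genes. All 20 cholesterol genes fell in both sets, with medians of -1.84 and -1.50, and the growth list fell in 24 and 25 of its members. The myelin list had medians of 3.57 and 4.55 and the astrocyte list of 1.27 and 1.22. Ependymal genes, with a median of 1.62 here, had 0.16 and 0.24 there, and Gfap was 13900 CPM in replicate 3 of day 21 in the scaling over all 18 libraries, against 1350 to 3410 CPM in the 6 day 21 libraries of those sets.

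**Figure D5:**
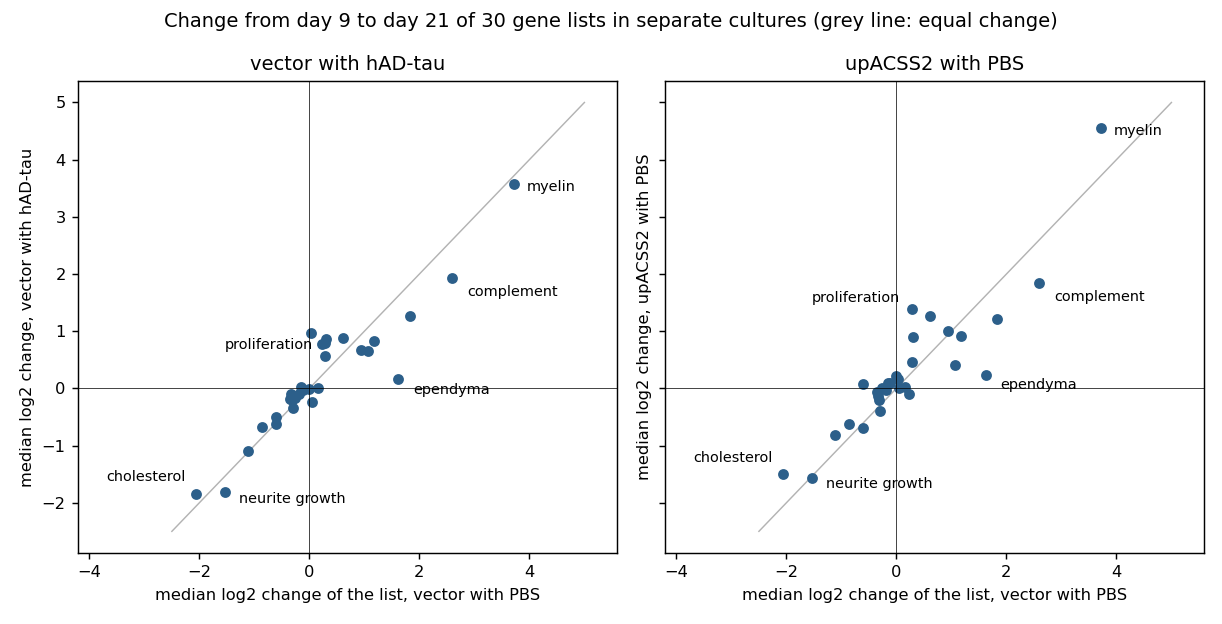
Each point is 1 of 30 gene lists, with the median log2 change from day 9 to day 21 in vector PBS cultures on the x axis and in vector hAD-tau (left) or upACSS2 PBS cultures (right) on the y axis; the grey line marks equal change. Most points lie near the line, with cholesterol synthesis at -2.06 against -1.84 and -1.50, and ependyma under it at 1.62 against 0.16 and 0.24.

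Tests of the difference itself found little. The change over time differed between hAD-tau and PBS for 0 of 14464 genes (0% called, edgeR, 12 libraries), with 713 at an unadjusted p under 0.05. DESeq2 called 1, and edgeR called 1 without replicate 2 of hAD-tau on day 21. Between upACSS2 and vector it differed for 1 of 14559 genes (0.00687%), with 1265 at an unadjusted p under 0.05 and 62 called by DESeq2. That gene was Sox10, whose rise was larger with upACSS2 by a log2 difference of 3.50 with an SE of 0.49 (edgeR, adjusted p 0.0491). The call was lost on leaving out any 1 of the 12 libraries except vector day 9 replicate 2 and upACSS2 day 21 replicate 3, with a difference of 3.18 to 3.78 throughout. Proliferation genes were higher on day 21 in 26 of 28 with upACSS2 (median 1.38), in 15 with hAD-tau (median 0.57) and in 6 here, and no gene of the list passed the test of the difference. Activity-regulated genes were higher in 17, 14 and 8 of 24 in the same order. Over all genes tested, 4084 of 14128, 3579 of 13990 and 3318 of 14336 were higher in that order. The biological coefficient of variation on day 21 was 0.166, 0.184 and 0.247. A change of equal size is thus called more readily in the 2 further sets, so these counts do not compare the cultures on equal terms.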

How the data were processed

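RNA was extracted with Trizol and a Qiagen column and libraries were made with NEB kit E7490, per the labels' protocols. The authors deposited 1 table of raw counts per gene for 24 libraries, of which 6 (3 per day) were compared. The submitters' processing notes name STAR, featureCounts, HTSeq, DESeq2 and build mm10, with no versions or roles. The strand setting of the counting is not given in the sources used here, so genes that overlap or run antisense are uncertain. Counts were tested with edgeR 4.0.16 (R 4.3.3) by its quasi-likelihood F test. Each day had its own dispersion trend, scaling was TMM, filterByExpr removed low counts, and p-values were Benjamini-Hochberg adjusted at 0.05. A gene almost absent on 1 day could pass that filter only through the other day. A second call tested for a change beyond 2-fold. Interactions used 12 libraries. Day 21 minus day 9 gives the sign of every log2 fold change. The SE of a log2 fold change was its absolute value divided by the square root of the F statistic, not a separately fitted error. Alternatives used limma 3.58.1, DESeq2 1.42.0, other scalings and left-out libraries. Depth limits the precision of genes with few counts, and intervals cover counting and library spread only.

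The members and the lists were chosen with earlier results of these data known. Named by rule were the 12 highest and 12 lowest genes called beyond 2-fold at a mean log2 CPM of at least 4 without overlap, the key genes of each list, the genes of the pairs, called interaction genes, and Acss2 and Rn45s. Other genes given as examples of a list were chosen after their values were seen. For the 2 further sets the titles were used, since another label of those samples differs from them. Some genes are not reported here by name and are left out of 2 figures, but they stay in the fits and in the counts of lists and pairs. The mitochondrially encoded transcripts were not analysed here.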

Additional observations from a re-analysis of the deposited data

Results flagged for a closer look

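Sox10, a transcription factor of the oligodendrocyte lineage, was singled out by a test of the difference between 2 changes over time. Its rise from day 9 to day 21 was larger with upACSS2 than with the vector by a log2 difference of 3.50 with an SE of 0.49 (edgeR, adjusted p 0.0491, 3 libraries per group). With upACSS2 it measured 0.169, 0.0658 and 0.105 CPM on day 9 and 118, 79.8 and 74.6 CPM on day 21. With the vector it measured 1.34, 0.421 and 1.27 CPM on day 9 and 43.6, 51.9 and 37 CPM on day 21, in the scaling over all 3 sets. The upACSS2 libraries were thus lower on day 9 and higher on day 21, with no overlap on either day. These are the same values that singled out the gene, so the lack of overlap adds no support. The upACSS2 levels of day 9 lay near the floor of the counts. Leaving out any 1 of the 12 libraries lost the call, except vector day 9 replicate 2 and upACSS2 day 21 replicate 3.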

How the results depend on the processing

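The main counts of 3318 higher and 2713 lower genes ranged over 2567 to 3282 and 1643 to 2752 when 1 library was left out, and beyond 2-fold over 557 to 785 higher and 228 to 356 lower. Without replicate 2 of day 21 the lower genes numbered 1643, and 228 beyond 2-fold. Scaling to the pan-neuronal genes, chosen after seeing the data, gave 7533 higher and 593 lower, with 1777 and 96 beyond 2-fold. Among named genes called with this scaling or in the main fit, it turned the sign of Grin1 (0.05), Gria1 (0.53), Dlgap3 (0.50), Kcna1 (0.45), Dnmt1 (0.56), Ptbp2 (0.25), Hk1 (0.05) and Slc1a2 (0.54). Sign changes of genes called in neither fit are not listed. Foxj1 ranged from -0.45 without replicate 3 of day 21 to 1.83 without replicate 2. Beyond 2-fold, 507 genes were higher with 1 dispersion trend for both days, and limma voom gave 433 higher and 219 lower. The replicate block gave 3189 higher and 3031 lower genes. The labels do not say whether libraries of the same replicate number belong together. Their deviations from the day means correlated at 0.0463, 0.062 and 0.06. The day 9 libraries varied little, so these low values cannot exclude a pairing.

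The hAD-tau difference was called for 1 gene with no filter, 1 with DESeq2 and 1 without hAD-tau replicate 2 of day 21 (0 to 1 over left-out libraries). The upACSS2 difference was called for 0 genes with 1 dispersion trend, 4 with no filter, 0 with the replicate block, 62 with DESeq2 and 0 to 2 over left-out libraries. The Sox10 difference stayed between 3.18 and 4.17 in 17 alternatives, with adjusted p from 2.26e-06 (DESeq2) to 0.424. The cause of these shifts was not tested.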
